A study of Mus musculus with 21 samples.

Results

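The genes described here encode the subunits of the oxidative phosphorylation system, the chain of protein complexes in the inner mitochondrial membrane. They were taken by symbol from an RPKM table (reads mapped to a gene, divided by its length in kb and by library depth) of EL4 cells, a mouse T lymphoma line labelled with the strain C57BL/6. The choice covered symbols that begin with Nduf or Atp5, most symbols that begin with Uqcr, and symbols that consist of Cox, a digit from 4 to 8 and further letters or digits. Sdha, Sdhb, Sdhc, Sdhd, Cyc1 and Cycs were added by name. This gave 87 of 22119 rows, of which 79 are subunit rows: 36 of complex I, 4 of complex II, 7 of complex III, 17 of complex IV and 15 of complex V. Rows were assigned to complexes by symbol, so Ndufa4 and the row of Ndufa4l2 stand with complex I. The other 8 rows are 4 assembly factors of complex I (Ndufaf1 to Ndufaf4), the electron carrier cytochrome c (Cycs), and Cox4nb, Atp5s and Atp5sl, whose symbols meet the rule although their products are not counted as subunits. Not every nuclear subunit is covered: 4 rows that hold a subunit symbol behind the symbol of another gene were not taken. The comparison was between 2 libraries of cells with a short hairpin named for luciferase, which serves as the control (shLuc), and 2 libraries with a hairpin against Ctcf (shCTCF). Ctcf encodes a DNA-binding protein of insulators that anchors chromatin loops. Both groups are EL4 cells whose RNA was selected for poly(A). The labels name no hairpin sequence, no time after its introduction and no separate cultures, so the p-values below reflect library-to-library spread alone, possibly technical, and lower Ctcf cannot be told apart from other effects of its hairpin. The table heads the libraries of each hairpin 2 and 3, and they are called shLuc2, shLuc3, shCTCF2 and shCTCF3 here.

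Complex I (NADH dehydrogenase) and complex II (succinate dehydrogenase, also an enzyme of the citric acid cycle) pass electrons to ubiquinone. Complex III (the cytochrome bc1 complex) passes them on to cytochrome c, and complex IV (cytochrome c oxidase) from there to oxygen. Complexes I, III and IV pump protons, and complex V (ATP synthase) uses the gradient to make ATP. All subunits of complex II are encoded in the nucleus, while the other 4 complexes also contain subunits encoded by mitochondrial DNA, which are not analysed here. In T cells the system supports resting and memory states, and lymphoma lines commonly combine it with high glycolysis.

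The values implied library totals of 4346710 (shCTCF2) to 6133046 reads (shLuc3), and 1 read was worth 0.163 to 0.23 RPKM for a model of 1 kb. Markers of T cells (7 of 7 tested, among them Cd3e, Thy1 and Lck) summed to 1374 and 1398 RPKM in shLuc and 1201 and 1206 RPKM in shCTCF. Markers of myeloid cells summed to 2.07 to 3.56 RPKM, and those of B cells, fibroblasts and embryonic stem cells to at most 0.565 RPKM in any library, with Ms4a1, Emr1 and Sox2 at 0 in all 4. The target itself, Ctcf, was at 49.0 and 50.9 RPKM in shLuc and at 26.5 and 26.4 RPKM in shCTCF, a log2 change of −0.89 (SE 0.08, adjusted p = 0.00754). Without shLuc2, without shLuc3 or without the filter on low values the change of Ctcf no longer passed (adjusted p = 0.146, 0.148 and 0.222), while its log2 change stayed at −0.92, −0.86 and −0.89. A log2 change here is the shCTCF mean minus the shLuc mean of log2(RPKM + 1), which understates changes of low genes, tested with limma over 9898 genes and adjusted by Benjamini-Hochberg. With 2 libraries against 2, an exact permutation test of a single gene could not go below p = 0.333.

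Of the 87 rows, 82 had a mean RPKM of 1 or more and were tested, and 1 of them rose: Atp5k, the e subunit of ATP synthase. None fell. Over all tested genes, 0.697% rose and 0.596% fell at an adjusted p below 0.05, so 1 row in 82 is close to that background. At an unadjusted p below 0.05, 17 of the 82 were higher and 2 lower in shCTCF, against 8.19% and 5.93% of all tested genes. In 32 of the 82 both shCTCF libraries lay above both shLuc libraries, and in 7 both lay below. The same held for 24.1% (above) and 19.9% (below) of all tested genes. The log2 change was above 0 in 65 of the 82, against 53.3% of all tested genes. Its median was 0.10, beside a median of 0.01 over all tested genes. Of the 2 shCTCF libraries, shCTCF3 lay further from the shLuc mean: its median over the members was 0.18, with 70 of 82 above 0, and that of shCTCF2 was 0.03, with 48 of 82 above 0. The corresponding medians over all tested genes were 0.02 and 0.01, with 5294 and 5144 of 9898 above 0. In 6 subunit rows the value is joined with that of an overlapping gene (Ndufb11 with Rbm10, Ndufa2 with Tmco6, Ndufa4l2 with Shmt2, Ndufa13 with Tssk6, Atp5j with Gabpa and Atp5f1 with Wdr77). All 6 had a positive log2 change, and they are included in the counts, medians and sums. Over the 76 tested rows of 1 gene, 59 were positive and the median was 0.10. In bulk RNA such values cannot tell fewer cells from less RNA per cell.

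In summed RPKM the members came to 10106 and 10050 in shLuc, 10472 in shCTCF2 and 11866 in shCTCF3. The shCTCF2 sum exceeded the shLuc mean by 3.91% and the shCTCF3 sum by 17.7%. For the sum over all 21844 symbols, tested or not, these were 1.06% and 3.47%. The complexes differed in this respect. The sum of complex IV subunits was 7.33% (shCTCF2) and 25.5% (shCTCF3) above the shLuc mean, that of complex I subunits 3.75% and 20.8%, and that of complex III 0.171% and 20.2%. Complex V followed with 3.39% and 10.9%. The sum of complex II stayed within 1.99% of the shLuc mean in both shCTCF libraries. None of these sums was tested.

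**Figure D1:**
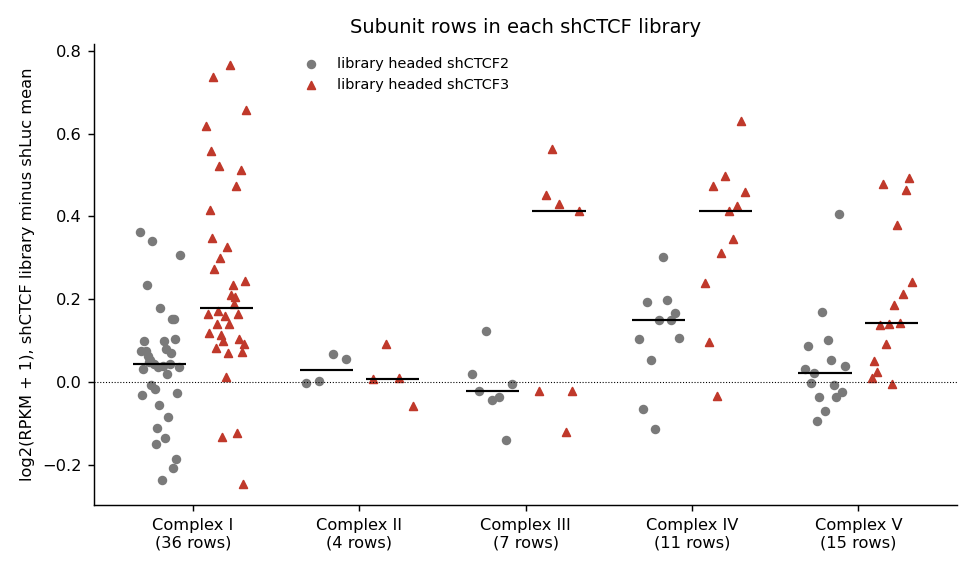
Difference of each subunit row from the shLuc mean on the log2(RPKM + 1) scale, by complex, in the library headed shCTCF2 (grey circles) and in that headed shCTCF3 (red triangles). Horizontal bars are medians over rows, and the near-zero row Cox7a1 is left out. In complexes I, III, IV and V the median of shCTCF3 lies above that of shCTCF2, and in complex II both lie near 0.

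The members are among the more abundant transcripts of these cells. Their median level was 104 RPKM, beside 17.7 RPKM over all tested genes, and 30 of them were among the 500 highest of 21844 symbols. RPKM is per length, so levels can be set side by side only as far as the lengths of the gene models hold. The median over subunit rows was 80.7 RPKM in complex I, 125 in complex II, 144 in complex III, 175 in complex IV and 157 in complex V. Within a complex the highest row exceeded the lowest 17.1-fold in complex I (Ndufa4 against Ndufa11), 2.73-fold in complex II (Sdhd against Sdhc), 3.56-fold in complex III (Cyc1 against Uqcrfs1) and 7.48-fold in complex V (Atp5b against Atp5h). In complex IV the range ran from Cox7a1 at 1.71 RPKM to Cox8a at 585 RPKM, because tissue-restricted isoforms are included there. The lowest and highest rows of complex I also differ in model length. Ndufa11 has a recovered length of 2661 bp and 149 to 221 reads per library. For Ndufa4 these are 492 bp and 481 to 739 reads.

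**Figure D2:**
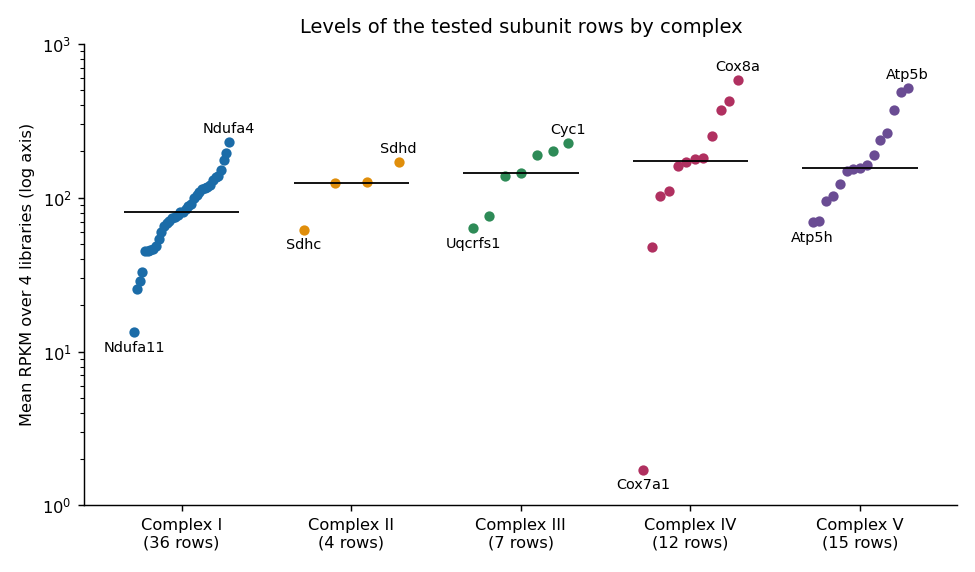
Mean RPKM over the 4 libraries (log axis) of every tested subunit row, sorted within each complex, with the lowest and the highest row named and the median drawn as a line. Complex II spans the narrowest range, from 62.2 to 169.7 RPKM, and complex IV the widest.

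In complex I, 0 of 36 subunit rows passed the test. At an unadjusted p below 0.05, 7 were higher and 1 lower, against 8.19% and 5.93% of all tested genes. The values were above 0 in 29 of 36, with a median log2 change of 0.10 (0.04 in shCTCF2 and 0.18 in shCTCF3). Core subunits, which carry the flavin and the iron-sulfur clusters and are conserved from bacteria, numbered 6 among the rows taken and had a median of 0.06. Accessory subunits, which surround the core, numbered 30 and had a median of 0.11. The 2 sets also differ in gene model length, with a median of 1218 bp for the 6 core rows and 560 bp for the 24 accessory rows with a recovered length. The part of length in their difference was not tested. The sum over the core subunits was 527 and 512 RPKM in shLuc and 521 and 525 RPKM in shCTCF2 and shCTCF3, so both shCTCF sums lie inside the shLuc range. The sum over the accessory subunits was 2546 and 2531 RPKM in shLuc, 2651 in shCTCF2 and 3168 in shCTCF3, so both shCTCF sums exceed both shLuc sums.

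Among accessory subunits, Ndufa1, a small membrane-spanning subunit encoded on the X chromosome, was at 91.7 and 90.0 RPKM in shLuc and at 117 and 139.9 RPKM in shCTCF. Both shCTCF libraries are higher and the groups do not overlap. Its log2 change of 0.49 (SE 0.10) had an adjusted p of 0.0574 and did not pass. Ndufa3, another small membrane subunit, was at 77.1 and 72.9 RPKM in shLuc and at 88.3 and 126 RPKM in shCTCF. The groups do not overlap, but most of the difference lies in shCTCF3, and the log2 change of 0.49 (SE 0.15) had an adjusted p of 0.189. Ndufv3, a small subunit bound to the NADH-binding module, was at 128 and 124 RPKM in shLuc and at 156 and 199 RPKM in shCTCF. Again the groups do not overlap and shCTCF3 is the highest library (log2 change 0.48, SE 0.11, adjusted p = 0.0978).

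Other accessory subunits had a similar pattern. Ndufa7, a subunit of the peripheral arm, was at 42.0 and 40.6 RPKM in shLuc and at 52.5 and 59.7 RPKM in shCTCF (log2 change 0.43, SE 0.09, adjusted p = 0.0726). Ndufs6, a zinc-binding subunit, was at 68.3 and 62.5 RPKM in shLuc and at 72.7 and 93.5 RPKM in shCTCF (log2 change 0.33, adjusted p = 0.253). In both the groups do not overlap. Ndufb6, a small membrane subunit, was at 74.3 and 61.4 RPKM in shLuc, 72.4 in shCTCF2 and 116 in shCTCF3, so only shCTCF3 lies outside the shLuc range (log2 change 0.43, SE 0.19, adjusted p = 0.368).

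Ndufv1, a large core subunit that binds NADH and the flavin, was at 123 and 119 RPKM in shLuc and at 118 and 129 RPKM in shCTCF. The groups overlap, with a log2 change of 0.03 (adjusted p = 0.917). Ndufab1, the mitochondrial acyl carrier protein and an accessory subunit, was at 32.9 and 36.3 RPKM in shLuc and at 31.1 and 31.4 RPKM in shCTCF, where both libraries are lower (log2 change −0.14, adjusted p = 0.547).

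The most abundant rows of complex I also differed less. Ndufa4, which was described first with complex I and is now counted with complex IV, was at 204 and 227 RPKM in shLuc and at 225 and 260.4 RPKM in shCTCF. By its symbol it is included here in the counts, medians and sums of complex I. The groups overlap, since shCTCF2 lies below shLuc3. Ndufa8 was at 187 and 183 RPKM in shLuc and at 191 and 228 RPKM in shCTCF, and Ndufb8 at 169 and 161 RPKM against 174 and 194 RPKM. In both genes the groups do not overlap, although shCTCF2 lies close to shLuc2. Their log2 changes were 0.17 (Ndufa4, adjusted p = 0.507), 0.17 (Ndufa8, adjusted p = 0.493) and 0.16 (Ndufb8, adjusted p = 0.469).

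At the lower end stood the core subunit Ndufs8, which binds iron-sulfur clusters in the arm that leads to ubiquinone. It was at 111 and 114 RPKM in shLuc and at 98.4 and 94.3 RPKM in shCTCF, where both libraries are lower. Its log2 change of −0.22 (SE 0.08) had an adjusted p of 0.237. The assembly factors, which help to build complex I and leave it again, were low. Ndufaf3 was at 7.51 and 8.10 RPKM in shLuc and at 5.82 and 6.17 RPKM in shCTCF, and Ndufaf4 at 16.2 and 19.0 RPKM against 13.8 and 15.6 RPKM. In both, each shCTCF library lies below each shLuc library, with log2 changes of −0.33 (adjusted p = 0.252) and −0.24 (adjusted p = 0.407). Of the 4 assembly factors with an Ndufaf symbol, 3 had a negative log2 change and 0 passed. Ndufa4l2, a paralog of Ndufa4 known from hypoxic cells, shares its row with Shmt2, so its own level cannot be read from the joined value of 66.0 RPKM.

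The 4 genes of complex II differed least between the groups. Sdha, the flavoprotein that oxidises succinate, was at 129.6 and 119 RPKM in shLuc and at 124 and 125 RPKM in shCTCF. Sdhb, the iron-sulfur subunit, was at 124 and 125 RPKM in shLuc and at 125 and 132 RPKM in shCTCF. The membrane anchors that bind heme and ubiquinone were at 61.2 and 61.5 against 64.4 and 61.8 RPKM (Sdhc) and at 178 and 162 against 176 and 163 RPKM (Sdhd). In Sdha, Sdhb and Sdhd the groups overlap or touch, and in Sdhc they are separated by less than 1 RPKM. The log2 changes ran from −0.00 (Sdhd) to 0.05 (Sdhb) and 0 of 4 passed, with adjusted p-values of 0.855 to 0.998.

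Complex III was divided between its larger and its smaller subunits. Cyc1, the heme protein that hands electrons to cytochrome c, was at 243 and 212 RPKM in shLuc and at 230.1 and 223 RPKM in shCTCF, inside the shLuc range. Uqcrc1, a large matrix-facing core protein, was at 148 and 137 RPKM in shLuc and at 139 and 131 RPKM in shCTCF. Uqcrfs1, the Rieske iron-sulfur protein, was at 65.8 and 65.3 RPKM against 59.4 and 64.6 RPKM. The log2 changes of these 3 were −0.00, −0.08 and −0.08, with adjusted p-values of 0.734 or more.

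The small subunits of complex III differed between the shCTCF libraries. Uqcr11 was at 165 and 167 RPKM in shLuc, 180.5 in shCTCF2 and 245 in shCTCF3, the only tested row of complex III in which both shCTCF libraries exceed both shLuc libraries. Its log2 change of 0.34 (SE 0.13) had an adjusted p of 0.28. Uqcr10 was at 193 and 178 RPKM in shLuc, 183 in shCTCF2 and 254 in shCTCF3. Uqcrh and Uqcrb, the hinge protein and the ubiquinone-binding protein, likewise had shCTCF2 near or within the shLuc range (133 against 132 and 134 RPKM, and 68.1 against 62.2 and 79.4 RPKM) and shCTCF3 above it (177 and 95.1 RPKM). The median over the 7 rows was therefore −0.02 in shCTCF2 and 0.41 in shCTCF3, and 0 of 7 passed. Cytochrome c itself (Cycs), the mobile carrier between complexes III and IV, was at 23.6 and 27.6 RPKM in shLuc and at 24.7 and 27.4 RPKM in shCTCF, inside the shLuc range (log2 change 0.02, adjusted p = 0.957).

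Complex IV had the highest median. All 12 of its tested subunit rows had a positive log2 change, against 53.3% of all tested genes. Their median was 0.29 (0.15 in shCTCF2 and 0.42 in shCTCF3). Both shCTCF libraries lay above both shLuc libraries in 9 of 12, against 24.1% of all tested genes. At an unadjusted p below 0.05, 8 were higher, against 8.19% of all tested genes, but 0 of 12 passed after adjustment. The counts of positive, separated and higher rows each include Cox7a1, which rests on 0 to 5 reads per library. Cox7a2, a small subunit near the dimer interface, was at 147 and 152 RPKM in shLuc and at 185 and 200.0 RPKM in shCTCF. Both shCTCF libraries are higher, with a log2 change of 0.36 (SE 0.08) and an adjusted p of 0.0826. Cox7c, another small membrane-spanning subunit, was at 93.1 and 95.9 RPKM in shLuc, 106 in shCTCF2 and 147 in shCTCF3, so here shCTCF3 stands apart from the rest. Its log2 change was 0.40 (SE 0.14) with an adjusted p of 0.232.

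Cox6c and Cox5b followed. Cox6c was at 205 and 244 RPKM in shLuc and at 248 and 316 RPKM in shCTCF, and Cox5b, a zinc-binding subunit on the matrix side, at 148 and 166 against 179.5 and 218 RPKM. In both the groups do not overlap, and shCTCF3 is the highest library (log2 changes 0.32 and 0.33, adjusted p = 0.299 and 0.214).

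Cox8a, the most abundant member of all, was at 534 and 517 RPKM in shLuc, 566 in shCTCF2 and 723 in shCTCF3. Cox4i1, the subunit through which ATP regulates the enzyme, was at 391 and 405 RPKM in shLuc and at 428 and 469.8 RPKM in shCTCF. In both genes the groups do not overlap (log2 changes 0.28 and 0.17, adjusted p = 0.308 and 0.387). Cox6a1 and Cox5a did not share that separation. Cox6a1 was at 393 and 346 RPKM in shLuc and at 382 and 360.4 RPKM in shCTCF, inside the shLuc range (log2 change 0.01, adjusted p = 0.979). Cox5a was at 180.3 and 181 RPKM in shLuc and at 173 and 193 RPKM in shCTCF, on either side of it.

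Several subunits of complex IV exist in general and in tissue-restricted forms, the latter known mainly from heart, skeletal muscle, lung or testis. In EL4 the general forms made up nearly all of the signal. Cox4i2, Cox6b2 and Cox8b, known from lung, testis and muscle, were each listed above 0 in 1 shLuc library (0.224, 0.346 and 0.526 RPKM) and at 0 in the other 3 libraries. Cox7b2 and Cox8c were at 0 in all 4. A value of 0 allows up to 3 reads, which for Cox8b means up to 1.35 to 1.90 RPKM per library, so differences between groups were not detectable for these 5 rows. Cox7a1, the heart and muscle form of Cox7a2, was at 0 and 1.34 RPKM in shLuc and at 3.14 and 2.37 RPKM in shCTCF. These values rest on 0 and 3 reads in shLuc and 5 and 5 reads in shCTCF, so no fold is given (adjusted p = 0.157). Cox7a2l, which belongs to the same family and takes part in joining complexes into supercomplexes, was at 41.9 and 44.4 RPKM in shLuc and at 49.6 and 55.1 RPKM in shCTCF, where both libraries are higher (log2 change 0.27, SE 0.09, adjusted p = 0.214). Cox6b1 was at 152 and 156 against 142 and 191 RPKM, and Cox7b at 95.3 and 88.9 against 102 and 124 RPKM. The groups overlap in the first and not in the second (adjusted p = 0.802 and 0.251). Cox4nb, now named Emc8 and part of a complex of the endoplasmic reticulum, was at 21.1 and 20.1 against 19.9 and 20.6 RPKM (log2 change −0.02, adjusted p = 0.951). Cox6a2 shares a row with another gene, and its level cannot be read from it.

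In complex V, Atp5k rose. It encodes the e subunit, a small membrane protein at the interface between neighbouring ATP synthases, where dimers form. Its level was 129 and 138 RPKM in shLuc and 177 and 185 RPKM in shCTCF, or 134 ± 6.03 against 181 ± 5.21 RPKM (SD, n = 2 each). The 2 shCTCF libraries lie close together and well above both shLuc libraries. The log2 change was 0.43 (SE 0.08, adjusted p = 0.0421), and it was 0.41 in shCTCF2 and 0.46 in shCTCF3. Unlike Ndufa3 or Cox7c, the excess was of similar size in both shCTCF libraries. The values correspond to 198 and 247 reads in shLuc and 225 and 311 reads in shCTCF. The authors' deposited table of changed genes lists 214 rows as higher and 221 as lower. Those 214 are 0.967% of the 22119 rows of the full table, which include rows too low to be tested here. Of the members, the deposited table holds 4, all higher in shCTCF. It gives Atp5k a log2 fold change of 0.43 (FDR 0.0129), Ndufa1 one of 0.50 (FDR 0.00352), Cox7a2 one of 0.35 (FDR 0.00728) and Ndufv3 one of 0.40 (FDR 0.0138). The call for Atp5k was lost in 8 of 12 alternatives: in each of the fits that left out a library (log2 change 0.39 to 0.48), without the filter on low values (adjusted p = 0.32), without the mean-variance trend (adjusted p = 0.131), with quantile normalization (adjusted p = 0.0536) and with the trend on gene model length removed (log2 change 0.24, adjusted p = 0.237).

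**Figure D3:**
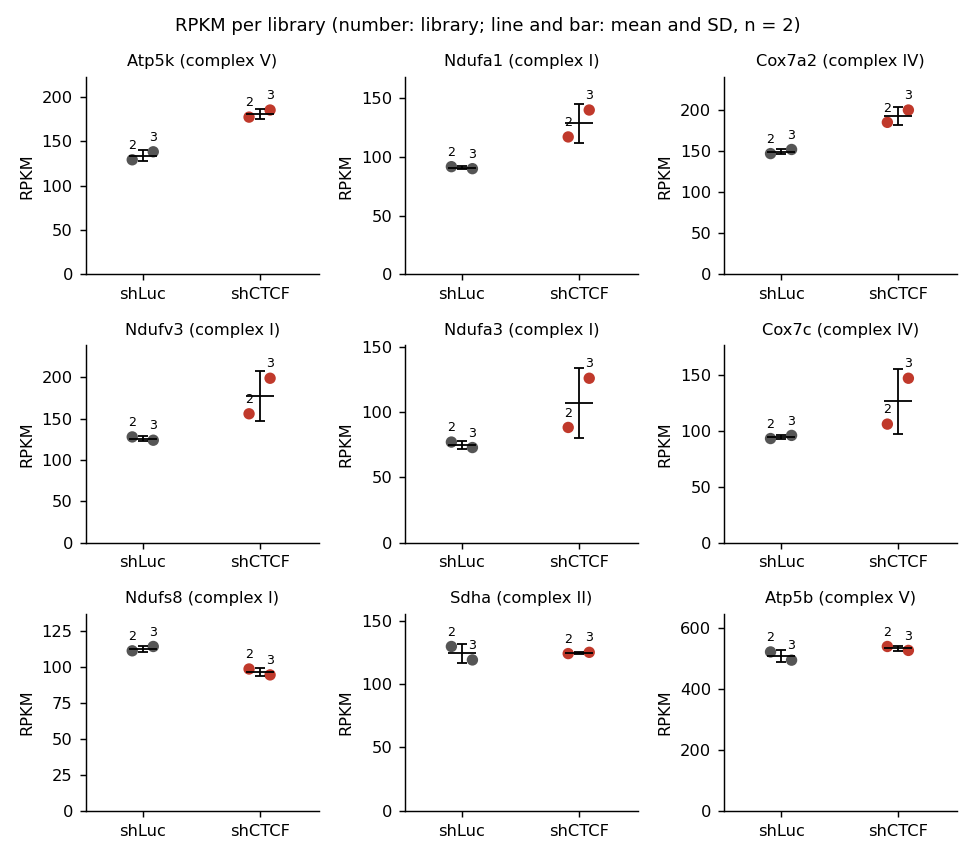
RPKM of 9 members in each library (points, numbered 2 and 3 as in the table), with the mean and SD of each hairpin (lines and bars, n = 2). Atp5k, Ndufa1 and Cox7a2 are higher in both shCTCF libraries, Ndufv3, Ndufa3 and Cox7c most of all in shCTCF3, Ndufs8 is lower, and Sdha and Atp5b differ little.

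For the 4 members in that table, the 250 bases before the RefSeq start of the gene (assembly GRCm38.p6) are shown, since Ctcf encodes a DNA-binding factor and promoters of this gene family are known for sites of NRF1, ETS-family factors, YY1 and SP1. Each is written 5′ to 3′ in the direction of the gene. Capitals mark a match to GCGCATGC (core of the NRF1 site), CCGGAAG (ETS), AAGATGGCG (YY1) or AGGGGGC (part of the CTCF motif), on either strand.
Atp5k, chr5:108434400-108434649, minus strand: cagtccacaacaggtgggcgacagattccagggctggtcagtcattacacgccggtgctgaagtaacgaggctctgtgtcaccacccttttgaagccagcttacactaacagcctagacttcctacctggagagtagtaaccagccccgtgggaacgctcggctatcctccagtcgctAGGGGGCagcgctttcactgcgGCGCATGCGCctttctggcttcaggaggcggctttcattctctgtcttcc
Ndufa1, chrX:37191239-37191488, minus strand: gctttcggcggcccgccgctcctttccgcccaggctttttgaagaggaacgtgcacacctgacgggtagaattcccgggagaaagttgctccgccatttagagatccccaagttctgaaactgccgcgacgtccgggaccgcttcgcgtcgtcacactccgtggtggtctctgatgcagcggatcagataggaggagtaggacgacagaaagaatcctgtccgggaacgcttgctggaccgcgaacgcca
Cox7a2, chr9:79759854-79760103, minus strand: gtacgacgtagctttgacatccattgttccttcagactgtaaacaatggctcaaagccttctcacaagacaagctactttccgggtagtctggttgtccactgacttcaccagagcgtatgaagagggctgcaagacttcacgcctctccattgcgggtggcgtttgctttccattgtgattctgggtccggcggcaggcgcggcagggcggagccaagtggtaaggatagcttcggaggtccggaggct
Ndufv3, chr17:31519865-31520114, plus strand: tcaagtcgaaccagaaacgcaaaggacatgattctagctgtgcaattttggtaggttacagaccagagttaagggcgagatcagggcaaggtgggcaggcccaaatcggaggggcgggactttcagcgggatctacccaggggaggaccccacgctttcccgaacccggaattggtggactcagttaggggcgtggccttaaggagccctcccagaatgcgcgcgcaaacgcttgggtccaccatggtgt
The Atp5k sequence holds AGGGGGC and, further towards the start, GCGCATGC, which is found on both strands because the matches overlap in GCGCATGCGC. A match to CCGGAAG reaches past the start and is not printed. The other 3 hold none of these 4 motifs. They do hold GGGCGG (the GC box bound by SP1, left in lower case) within the printed bases. Such matches are letters in a window and say nothing about binding in these cells.

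Over the windows of 300 bases around the start (250 before and 50 after) of 63 tested subunit genes, 10 of 68 windows (14.7%) held GCGCATGC, against 5.54% of the windows of tested genes and 2.71% of all windows. The YY1 letters AAGATGGCG were in 7 (10.3%, against 3.41% and 1.40%) and CCGGAAG in 16 (23.5%, against 19.4% and 8.86%). GGGCGG was in 26 (38.2%, against 63.1% and 35.7%). AGGGGGC was in 7 (10.3%, against 16.1% and 10.6%), those of Atp5e, Atp5g3, Atp5k, Cox6a1, Cox8a, Ndufc1 and Uqcrc1. The letters searched for the ETS and CTCF motifs were settled after first counts and the Atp5k sequence had been seen. Apart from Atp5k, none of these 7 genes passed the test, and their log2 changes ran from −0.08 (Uqcrc1) to 0.28 (Cox8a).

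The catalytic part of ATP synthase showed little difference. Atp5b, the beta subunit with the catalytic sites, was at 522 and 495 RPKM in shLuc and at 539.9 and 527 RPKM in shCTCF. Atp5a1, the alpha subunit, was at 491 and 471 RPKM in shLuc and at 492 and 484 RPKM in shCTCF. Atp5c1, the rotating gamma subunit, was at 246 and 276 against 260.1 and 265 RPKM. Their log2 changes were 0.07, 0.02 and 0.01, with adjusted p-values of 0.76, 0.95 and 0.975. In the last 2 the groups overlap.

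The c subunit, whose ring turns with proton flow, is made from 3 genes that encode the same mature protein. Atp5g3 was the most abundant, at 349 and 353 RPKM in shLuc and at 377 and 399.8 RPKM in shCTCF. Atp5g2 was at 105 and 104 against 99.6 and 104 RPKM, and Atp5g1 at 92.7 and 87.1 against 101 and 99.1 RPKM. Atp5g3 and Atp5g1 lay above shLuc in both shCTCF libraries, and Atp5g2 at or below it. The log2 changes were 0.14, −0.04 and 0.15, and 0 of 3 passed (adjusted p = 0.456, 0.897 and 0.435). The small subunits Atp5e and Atp5l had shCTCF2 within the shLuc range and shCTCF3 above it. For Atp5e the values were 139.7 and 163 RPKM in shLuc, 141 in shCTCF2 and 210.2 in shCTCF3, and for Atp5l 59.9 and 69.0 RPKM, 63.2 and 90.9 RPKM. The groups overlap in both, with log2 changes of 0.19 and 0.24 (adjusted p = 0.688 and 0.572). Of the stalk subunits, Atp5o was at 118 and 115 RPKM in shLuc and at 120.1 and 138 RPKM in shCTCF, and Atp5h at 61.5 and 66.8 against 66.5 and 83.7 RPKM. The groups do not overlap in the first and do in the second (log2 changes 0.14 and 0.22, adjusted p = 0.551 and 0.466). Atp5sl, which is not a subunit, was at 5.67 and 5.66 RPKM in shLuc and at 5.49 and 4.64 RPKM in shCTCF (log2 change −0.14, adjusted p = 0.722). Over the 15 subunit rows of complex V, 14 log2 changes were positive, with a median of 0.09. The median was 0.02 in shCTCF2, with 8 of 15 above 0, and 0.14 in shCTCF3, with 14 of 15 above 0.

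Across members, the log2 change followed the length of the gene model. Of the 82 tested rows, 71 had a length recovered from the values. Over these the Spearman correlation of length with log2 change was −0.60 (Pearson −0.54), and it was −0.31 in shCTCF2 and −0.67 in shCTCF3. These points share the same 4 libraries. Some recovered lengths may be too short by a whole factor, for example those of Ndufa7 (241 bp) and Ndufb3 (266 bp). Over all 7010 tested genes with a length the Spearman correlation was −0.16 (−0.06 in shCTCF2 and −0.22 in shCTCF3). The members are short: the median length was 545 bp in complex IV, 546 bp in complex III, 646 bp in complex I, 647 bp in complex V and 1232 bp in complex II.

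Set beside tested genes of like length that were neither members nor ribosomal proteins, the members had somewhat higher medians in the shorter classes. The 15 members under 500 bp had a median log2 change of 0.25, with 86.7% positive, and the 201 other genes of that length one of 0.15, with 62.7% positive. From 500 to 700 bp the medians were 0.17 (23 members, 91.3% positive) and 0.14 (165 genes, 67.9% positive), and from 700 to 1000 bp 0.09 (9 members) and 0.07 (371 genes). From 1000 to 2000 bp both were 0.03 (17 members and 1771 genes). These differences between members and other genes were not tested. The trend lay mostly in 1 library. Among all tested genes under 500 bp, shCTCF3 exceeded shCTCF2 by a median of 0.21, whereas shLuc3 and shLuc2 differed by a median of 0.00. With a smooth trend on length taken out of each library, an alternative added after these values had been seen, the median over the 71 members was 0.02. Of the 71, 42 were positive and 0 passed (13 at an unadjusted p below 0.05). Of all 7010 genes in that fit, 126 passed and 971 had an unadjusted p below 0.05. The part of fragment size, RNA quality or shCTCF3 alone in the higher values was not tested.

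**Figure D4:**
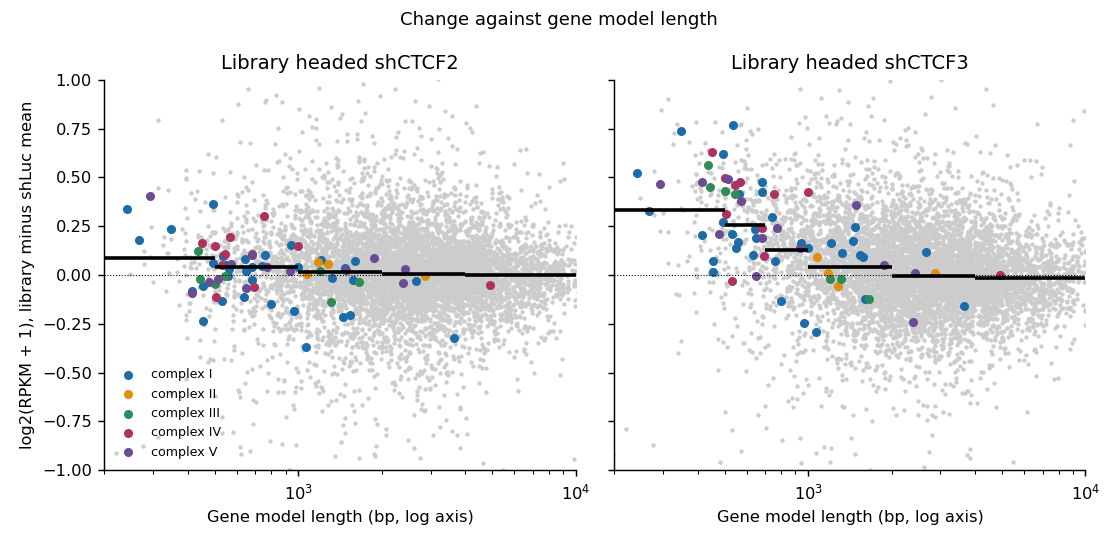
Difference from the shLuc mean on the log2(RPKM + 1) scale against gene model length (log axis) in the library headed shCTCF2 (left) and in that headed shCTCF3 (right). Grey points are tested genes, coloured points are members by complex, and black bars are medians of all tested genes per length class. Genes beyond ±1, Cox7a1 among them, are outside the axes. Under 500 bp the median of all tested genes is 0.09 in shCTCF2 and 0.33 in shCTCF3.

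Ribosomal proteins, which are also short and abundant, gave a comparison of the same kind. Of the 70 tested genes of the cytosolic ribosome, 65 had a positive log2 change, against 53.3% of all tested genes. Their median was 0.19 (0.10 in shCTCF2 and 0.28 in shCTCF3), and 0 passed (28 higher and 0 lower at an unadjusted p below 0.05). Their summed level exceeded the shLuc mean by 7.32% in shCTCF2 and 20.2% in shCTCF3. In 50 of these 70 genes (71.4%) both shCTCF libraries lay above both shLuc libraries, against 24.1% of all tested genes. Of the 67 genes of the mitochondrial ribosome, which translates the subunits encoded by mitochondrial DNA, 53 were positive with a median of 0.07 (0.02 in shCTCF2 and 0.13 in shCTCF3), while 1 rose and 1 fell.

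Other genes of mitochondrial metabolism were taken from lists by function, and their medians ran from 0.02 to 0.09, beside 0.10 for the members and 0.01 for all tested genes. Of 19 tested assembly factors of the complexes, 11 had a positive log2 change and 0 passed (2 higher and 0 lower at an unadjusted p below 0.05), with a median of 0.02. Among them Cox17, which delivers copper to complex IV, was at 116 and 109.9 RPKM in shLuc, 129 in shCTCF2 and 163 in shCTCF3 (log2 change 0.36, adjusted p = 0.193). Lyrm7, which helps to insert the Rieske protein into complex III, was at 8.93 and 10.1 against 8.86 and 7.95 RPKM (log2 change −0.16, adjusted p = 0.621). Tmem70, which aids the assembly of ATP synthase, had a log2 change of −0.09 at a mean of 41.9 RPKM. Of 17 genes for the expression of mitochondrial DNA and mitochondrial biogenesis, 10 were positive, 0 passed (1 higher and 1 lower at an unadjusted p below 0.05) and the median was 0.07. Peo1, the mitochondrial DNA helicase, was at 8.86 and 9.72 RPKM in shLuc and at 12.0 and 11.8 RPKM in shCTCF (log2 change 0.33, adjusted p = 0.217). Tfb2m, a factor that opens mitochondrial promoters, was at 9.82 and 10.3 against 7.14 and 8.92 RPKM (log2 change −0.30, adjusted p = 0.344). The most abundant of this list, the transcription factor Yy1 and the elongation factor Gfm1, had means of 89.7 and 60.4 RPKM and log2 changes of −0.08 and −0.06.

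Of 16 tested enzymes of the citric acid cycle and pyruvate oxidation, 12 had a positive log2 change and 0 passed (1 higher and 1 lower at an unadjusted p below 0.05), with a median of 0.05. Pdhx, a structural protein of the pyruvate dehydrogenase complex, was at 15.7 and 16.8 RPKM in shLuc and at 21.6 and 21.1 RPKM in shCTCF, where the groups do not overlap (log2 change 0.37, adjusted p = 0.115). Idh3a, a subunit of the NAD-dependent isocitrate dehydrogenase, was at 113 and 119 RPKM in shLuc and at 102 and 100.4 RPKM in shCTCF (log2 change −0.19, adjusted p = 0.315). Mdh2 and Dlst, the most abundant of the list, had means of 399.8 and 115 RPKM and log2 changes of 0.01 and 0.03. Of 23 genes for import and carriers of the inner membrane, 17 were positive and 0 passed (4 higher and 0 lower at an unadjusted p below 0.05), with a median of 0.09. Both shCTCF libraries lay above both shLuc libraries in 10 of these 23, against 24.1% of all tested genes. Slc25a5, which exchanges ADP for ATP, was at 491 and 474 RPKM in shLuc and at 438 and 444 RPKM in shCTCF (log2 change −0.13, adjusted p = 0.501). Slc25a3, the phosphate carrier that feeds ATP synthase, was at 429 and 444 against 458 and 468 RPKM (log2 change 0.09, adjusted p = 0.667). Tomm7, a small subunit of the outer membrane import pore, was at 54.7 and 57.3 RPKM in shLuc, 63.3 in shCTCF2 and 106 in shCTCF3 (log2 change 0.54, adjusted p = 0.256), again with shCTCF3 apart from the rest. Timm50, a receptor of the inner membrane import machinery, was at 54.7 and 39.8 against 44.5 and 39.7 RPKM, and the groups overlap (log2 change −0.15, adjusted p = 0.72).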

How the data were processed

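RNA of 4 EL4 libraries was analysed (2 shLuc, 2 shCTCF), and the other samples of the 21 in the series are not analysed here. Reads were aligned with Bowtie2 to mm9, per the submitters' processing notes. The full table deposited by the authors holds RPKM per gene model (22119 rows), and some overlapping genes share a row in it. A further deposited table lists 435 changed genes. Columns of log2 fold change, log2 CPM, p-value and FDR stand in that deposited table, per the file headers. Which tool made them, the aligner version, the counter and the annotation were not given in the sources used here. Libraries are numbered 1 and 2 there and 2 and 3 in the full table.

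A symbol with several rows was represented by its highest row. Log2(RPKM + 1) of the 9898 genes whose mean RPKM reached 1 was fitted in R 4.3.3 by limma 3.58.1 (lmFit and eBayes with trend, two-sided, no covariate), with Benjamini-Hochberg adjustment over all of them and a threshold of 0.05. The pseudocount of 1 understates changes of low genes. Rows of a single transcript are whole multiples of 1 read, so reads and lengths were recovered for 7033 of 7035 such rows (relative tolerance 1e-06), with the library totals set from RefSeq spans of 130 genes. A factor common to all 4 read numbers of a row cannot be seen, so reads and length may both be too low by that factor. Limits from 3 reads cover counting error only. The fit was tested on simulated data with a set spread between libraries. It found 32% of 1.5-fold changes, 83.9% of 2-fold changes and 98.5% of 4-fold changes at an adjusted p below 0.05. Of the calls, 9 of 73, 21 of 188 and 17 of 214 were false. Smaller changes were not simulated. The spread was set to a dispersion of 0.005 for every gene, not fitted to these libraries, and no trend on gene length was simulated. These shares may therefore not hold for the members.

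The members, the functional lists and the tests were chosen with earlier results of these data known. Genes named are Ctcf, members that passed, and per complex the 3 most abundant and the 2 largest and 2 smallest log2 changes. Isoform families and up to 4 genes per list (the 2 most abundant, the largest and the smallest change) were also to be named. Further members were named after their values were seen, and a few genes are not reported here. Promoter sequences are from RefSeq (GRCm38.p6), which had an entry for 73 of 87 members, and were read only from that table, since the expression values use mm9. Alternatives were another pseudocount, other filters, quantile normalization, no trend, the library number as a block, leaving out each library, limma-voom on recovered reads, and removal of the length trend. Calculations also used Python 3.11.15, numpy 2.4.6, pandas 2.3.3 and matplotlib 3.10.9.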

Additional observations from a re-analysis of the deposited data

How the results depend on the processing

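The median over the tested members stayed positive under every alternative, but its size varied. It was 0.10 in the main fit and ran from 0.02 with the length trend removed (71 members) to 0.18 without shCTCF2. Of 9898 genes the main limma fit called 128. It called 0 of 21844 without the filter on low values (1619 at an unadjusted p below 0.05) and 60 without the mean-variance trend. With limma-voom on recovered reads 312 of 7010 genes were called, so there the method and the genes both changed. Fits without 1 library called 0 to 78. Of members it called 1 (Atp5k). With a mean RPKM of 5 or more it called 2 of 80 (Ndufa1 and Atp5k), beside 137 of 8109 genes (1.69%). With limma-voom it called 4 of 71 (Ndufa1, Ndufa3, Cox7a2 and Atp5k), beside 4.45% of the genes in that fit. It called 0 members without the filter, with quantile normalization, without the trend and with the length trend removed. At an unadjusted p below 0.05 stood 8 of 87, 17 of 82, 10 of 82 and 13 of 71 members there. The same held for 1619 of 21844, 1355 of 9898, 1339 of 9898 and 971 of 7010 genes. In these alternatives it called 0, 104, 60 and 126 of all tested genes. For the fits without 1 library, the median over members was 0.11 without shLuc2 and 0.11 without shLuc3. It was 0.03 without shCTCF3 and 0.18 without shCTCF2. A fit without a library leaves a lone library, which is assumed to vary like the others. The cause of these differences was not tested. With the library number as a replicate block, 507 of 9898 genes (5.12%) were called. Of the 82 members 10 were called there (Ndufv3, Ndufa1, Ndufa3, Ndufa7, Cox6c, Cox5b, Cox7a2, Cox7c, Cox7a1 and Atp5k). The labels do not say that equal numbers pair libraries, and over the 2 pairs the correlation of same-numbered deviations was 0.165. Of the 53 tested members named here, 32 kept 1 sign in every alternative that covered them, 24 positive and 8 negative. Many of the 53 were named for a large or small change or after their values were seen. The alternatives reuse the same 4 libraries, so this count is a description and no independent support. Depth limits rows near 0, such as Cox7a1 with 0 to 5 reads per library.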
